A study of Homo sapiens with 6 samples.

Results

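Intermediate filaments are the rope-like polymers of the cytoskeleton. Vimentin (VIM) is the filament protein of mesenchymal and many cultured cells, keratins 8 and 18 (KRT8 and KRT18) pair with each other in simple epithelia, and the medium neurofilament protein (NEFM) builds the filaments of axons together with the light and heavy neurofilament proteins and internexin. HEK293T, a line derived from human embryonic kidney, is known to express filament proteins of all of these classes. The 6 rows described here are those of the deposited count table named VIM, VIM-AS1, KRT8, KRT18, NEFM and AF106564.1. They were chosen by gene and position, as filament genes with an annotated row over them on the other strand, out of 59087 rows in all, and each of the 6 was among the 14184 rows that passed the filter on low counts. The size of the counts in such rows had been seen when the set was proposed, so levels and the ratio between the rows of a pair are given as a description.

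RNA sequencing compared wild-type HEK293T cells (WT) with 2 separate THUMPD2 knockout lines, KO1 and KO2, with 2 libraries in each group and 6 in all. THUMPD2 is a methyltransferase that modifies U6, an RNA of the spliceosome, and the libraries were made to look for expression and splicing changes after its loss. No treatment is given in the labels, each knockout genotype is 1 line, and there is 1 WT line, so a difference between a line and WT can belong to the knockout or to the line, and these cannot be told apart. No label says whether the replicates are separate cultures, and the p-values therefore cover only the spread between libraries, which may be technical. With 2 libraries a group, the spread used for a row was drawn largely from other rows. Library totals ran from 7414339 to 8391143 reads, and the chi-square between replicates, per degree of freedom, was 2.30 to 4.13, more than counting alone gives. The THUMPD2 row had 0 to 3 reads in each of the libraries, so the target did not check the labels. Of 15 kidney tubule and podocyte markers, the rows UMOD, SLC12A3 and LHX1 had no read in any library, and the summed level of the list was 6.31 to 13.5 CPM (counts scaled to library size).

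Positions are on GRCh38 with the GENCODE v29 annotation. VIM (ENSG00000026025.15, chromosome 10, 17228259 to 17237593, plus strand) shares 641 exonic bases with VIM-AS1 (ENSG00000229124.6, an antisense gene, 17214239 to 17229985, minus strand), and 563 of them are coding bases of VIM. KRT18 (ENSG00000111057.10, chromosome 12, 52948871 to 52952901, plus strand) shares 525 exonic bases with KRT8 (ENSG00000170421.12, 52897187 to 52949954, minus strand), in 2 blocks of 375 and 150 bases. The first block, from 52949216 to 52949590, lies wholly in coding sequence of KRT18, while on the KRT8 side it belongs to upstream exons carried by 7 of 17 annotated KRT8 transcripts. NEFM (ENSG00000104722.13, chromosome 8, 24913012 to 24919098, plus strand) shares 1706 exonic bases with AF106564.1 (ENSG00000272163.1, antisense, a single exon from 24912165 to 24914717 on the minus strand), 924 of them coding in NEFM.

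**Figure D1:**
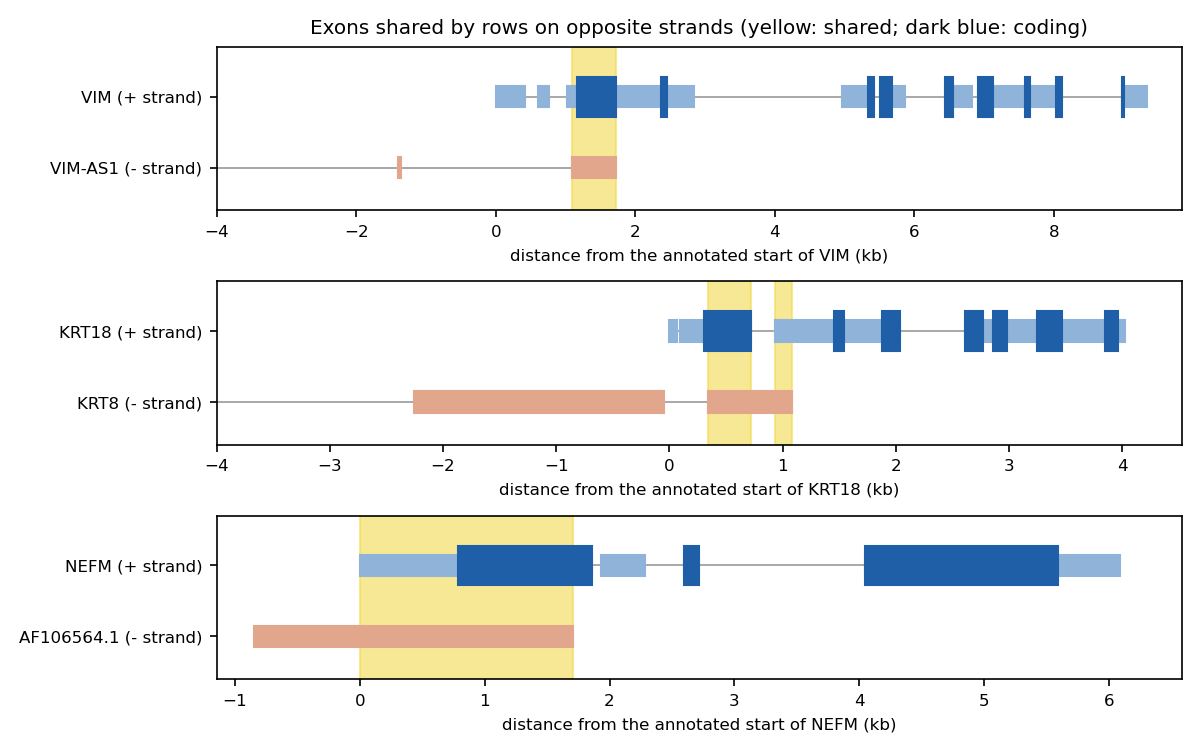
Exons of the 3 pairs in kb from the annotated start of VIM, KRT18 and NEFM (boxes, all transcripts joined), with coding bases of the upper gene in dark blue and the exonic bases shared by both strands in yellow. VIM-AS1 and KRT8 run on beyond the left edge. The shared stretch covers 641 bases for VIM, 525 for KRT18 and KRT8, and 1706 for NEFM.

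Stretches of VIM that both strands share are shown because a read from either strand of them can be placed in a row of the pair. They are coding bases of the plus strand taken from the GENCODE v29 transcript VIM-201, and capitals mark the start codon of VIM. The VIM stretch (chr10:17229423-17229662) begins at that codon and has 73.3% G and C. The other stretch (chr10:17234702-17234818) is a later coding exon of VIM, 59.0% G and C, that lies under AL133415.1, a second antisense row described below.
VIM first coding exon: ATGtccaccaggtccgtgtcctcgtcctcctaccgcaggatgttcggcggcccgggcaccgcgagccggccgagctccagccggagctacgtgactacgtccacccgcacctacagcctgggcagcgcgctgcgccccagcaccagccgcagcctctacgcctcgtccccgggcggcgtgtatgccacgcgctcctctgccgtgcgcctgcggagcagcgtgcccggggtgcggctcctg
VIM exon under AL133415.1: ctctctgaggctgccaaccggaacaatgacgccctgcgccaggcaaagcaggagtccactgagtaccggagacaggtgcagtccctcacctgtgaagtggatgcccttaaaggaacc

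How far these genes can be told from copies elsewhere differed between them. No 50-base window of VIM-201 occurred in a transcript of another gene on the same strand, and 6 windows of NEFM-201 did (0.2%). For KRT8-215, 41.3% of the windows also occurred in transcripts of 36 other genes, and for KRT18-201, 31.8% in 43 others, so the keratin counts are uncertain in a way that the VIM and NEFM counts are not. On the opposite strand, 43.8% of the VIM-201 windows occurred in VIM-AS1 or AL133415.1, and 41.7% of the NEFM-201 windows in AF106564.1. For KRT18-201, 21.8% occurred there in KRT8 or PTPN14. For KRT8-215 it was 1.0%, in AL139220.2 and not in KRT18.

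Within each pair 1 row held nearly all of the reads. The libraries were made with a kit that keeps the strand, while the strand setting of the counting is not given in the sources used here, so each change below is that of a row, whichever gene of the pair its reads came from. The same limit holds for rows with no annotated partner, such as INA, JUN and FN1, and for the sums over marker rows. VIM held 1.24% to 1.49% of the reads of VIM and VIM-AS1 together. KRT18 held 1.92% to 4.93% of the reads of KRT18 and KRT8, and NEFM 2.75% to 8.64% of those of NEFM and AF106564.1. Per length, the VIM-AS1 row stood at 2313 to 4086 FPKM (fragments per kilobase, scaled for depth) in the authors' deposited table, rank 151 of 11785 rows by its mean, and the VIM row at 30.7 to 64.5 FPKM, rank 3032. In the same deposited table the KRT8 row stood at 56.4 to 94.1 FPKM and AF106564.1 at 3.77 to 314.5 FPKM.

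The 3 filament loci behaved differently in the 2 lines. The neurofilament pair fell steeply in KO1 and rose steeply in KO2, the VIM rows rose in KO2 and were not called in KO1, and the KRT8 row fell in KO1 and rose in KO2 by much less. In KO1, 3 of the 6 rows were called, all lower, at a Benjamini-Hochberg adjusted p under 0.05 by the edgeR quasi-likelihood test. Over all rows tested, 23.6% were called in KO1, with 10.4% higher and 13.3% lower. In KO2 each of the 6 rows was called higher, where 29.0% of all rows were called, 13.6% higher and 15.4% lower. All 6 rows were also called between the lines, lower in KO1 than in KO2, against 20.4% of all rows called, 10.1% higher and 10.3% lower. With upper-quartile scaling the split over all rows in KO1 was 1941 higher and 1549 lower, against 1469 higher and 1881 lower as reported. The calls against WT share the 2 WT libraries. The fall in KO1 together with the rise in KO2, each called, was seen for KRT8, NEFM and AF106564.1, and for 74 of 14184 rows (0.522%).

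**Figure D2:**
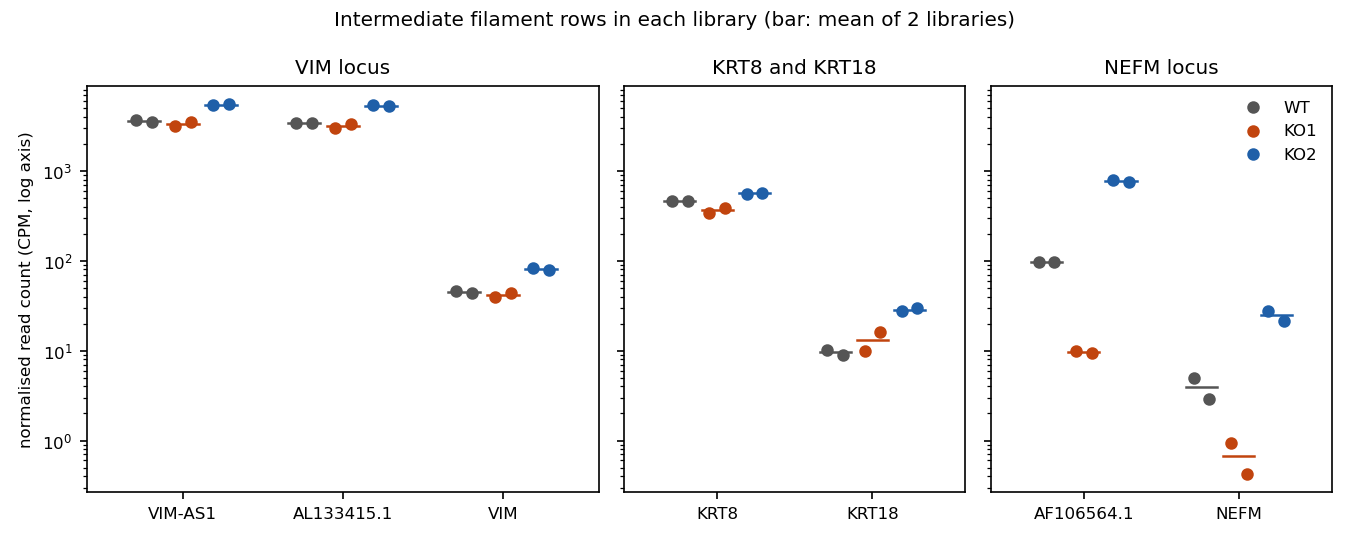
Normalised read count (CPM, log axis) of each row in each library, with a bar at the mean of the 2 libraries of a group, for WT, KO1 and KO2. AF106564.1 spans from 9.48 to 786 CPM, its KO1 libraries lie below both WT libraries and its KO2 libraries above, while VIM-AS1 and AL133415.1 are higher in KO2 alone.

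The antisense row over NEFM, AF106564.1, changed most of the 6. It had 719 and 772 reads in the WT libraries, 74 and 67 in those of KO1, and 6469 and 6574 in those of KO2. The KO2 libraries stood far above every other one. AF106564.1 fell by 3.32 ± 0.10 in KO1 (log2 fold change ± SE, n = 2 against 2, edgeR adjusted p = 1.14e-24), to a level 9.99-fold lower than in WT. In KO2 the same row rose by 2.99 ± 0.07 (edgeR adjusted p = 3.60e-28), a fold of 7.97 with a 95% interval of 7.23 to 8.79. For AF106564.1, KO1 lay 79.6-fold below KO2 (edgeR adjusted p = 1.41e-34), and 36 of the 14184 rows tested differed more between the lines.

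NEFM itself, the row named for the gene whose product sets much of the calibre of axons, followed AF106564.1 at lower counts. It had 37 and 23 reads in the WT libraries, 7 and 3 in those of KO1, and 229 and 186 in those of KO2. NEFM fell by 2.48 ± 0.46 in KO1 (log2, n = 2 against 2, edgeR adjusted p = 5.94e-05) and rose by 2.65 ± 0.25 in KO2 (edgeR adjusted p = 8.62e-11). The share of NEFM in the reads of its pair was 4.89% and 2.89% in the WT libraries, 8.64% and 4.29% in those of KO1, and 3.42% and 2.75% in those of KO2. With 81 and 70 reads in the pair, the Wilson 95% intervals of the KO1 shares ran from 4.25% to 16.8% and from 1.47% to 11.9%, so a difference in share between KO1 and WT was not detectable at this depth. Intervals cover counting error only. In the authors' deposited table, which sets the 4 knockout libraries together against the 2 of WT, AF106564.1 had a log2 fold change of -0.031 and a q-value of 0.993. That comparison takes together the lines in which this row moved in opposite directions.

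The other neurofilament rows were read beside NEFM, and INA, NEFL and AC107373.2 were singled out after their values were seen. NEFL, the light subunit, had 9 and 12 reads in the WT libraries, 24 and 15 in those of KO1, and 55 and 70 in those of KO2. It rose by 2.42 in KO2 (log2, edgeR adjusted p = 2.88e-06) and stood at 0.96 ± 0.43 in KO1, not called (edgeR adjusted p = 0.111). AC107373.2, over 490 exonic bases of NEFL on the other strand, rose by 1.78 in KO2 (edgeR adjusted p = 0.00191) and was at 0.87 in KO1, not called. NEFL lies within 1 Mb of NEFM, yet in KO1 it did not share the called fall of NEFM. The row INA, named for internexin, had 42 and 43 reads in the WT libraries, 9 and 3 in those of KO1, and 80 and 83 in those of KO2. INA fell by 2.72 ± 0.41 in KO1 (log2, edgeR adjusted p = 2.74e-06) and was at 0.80 ± 0.27 in KO2, called there (edgeR adjusted p = 0.0232) but not without any 1 of the WT or KO2 libraries (0.77 to 0.83) and not by DESeq2. Between the lines, KO1 minus KO2, INA was at -3.53 ± 0.38 (edgeR adjusted p = 4.23e-09). NEFH, the heavy subunit, was at -0.41 in KO1 and -0.54 in KO2, called in neither.

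Neuronal markers were set beside these rows. The summed level of 15 neuronal marker rows, all with reads in at least 1 library, was 32.3 and 38.1 CPM in the WT libraries, 41.7 and 34.3 in those of KO1, and 56.8 and 63.3 in those of KO2. Of the 5 marker rows tested, 1 was called higher in KO1 and 2 in KO2, beside 10.4% and 13.6% of all rows. Named after their values were seen, these were NCAM1 in both lines and RBFOX3 in KO2. NCAM1, a neural cell adhesion molecule, had 1 and 2 reads in WT, against 40 and 34 in KO1 and 38 and 52 in KO2. RBFOX3 made up most of the sum, and the other 14 rows summed to 4.99 and 7.30 CPM in WT, 10.4 and 12.3 CPM in the KO1 libraries, and 13.1 and 16.0 CPM in the KO2 libraries. Both tested rows over these markers on the other strand, NCAM1-AS1 and AP000802.1 over NCAM1, were called higher in both lines. They lie over the same gene, so together with the NCAM1 row these calls come from 1 locus. In bulk RNA, fewer cells of a type and less RNA per cell cannot be told apart. REST, the repressor of neuronal genes in other cells, was also named after its values were seen: its row rose by 0.28 in KO1 (edgeR adjusted p = 0.00573) and fell by 0.28 in KO2 (edgeR adjusted p = 0.00457). The REST call ended in KO1 without WT library 1 (0.25), and in KO2 without WT library 2 (-0.25) or KO2 library 1 (-0.23). Their part in the neurofilament values was not tested. Within 5 Mb of the NEFM pair, 42 other tested rows had a median of -0.01 in KO1 and 0.17 in KO2 on the log2 scale, and against the median of its 10 Mb bin AF106564.1 was again called lower in KO1, at -3.14, and higher in KO2.

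**Figure D3:**
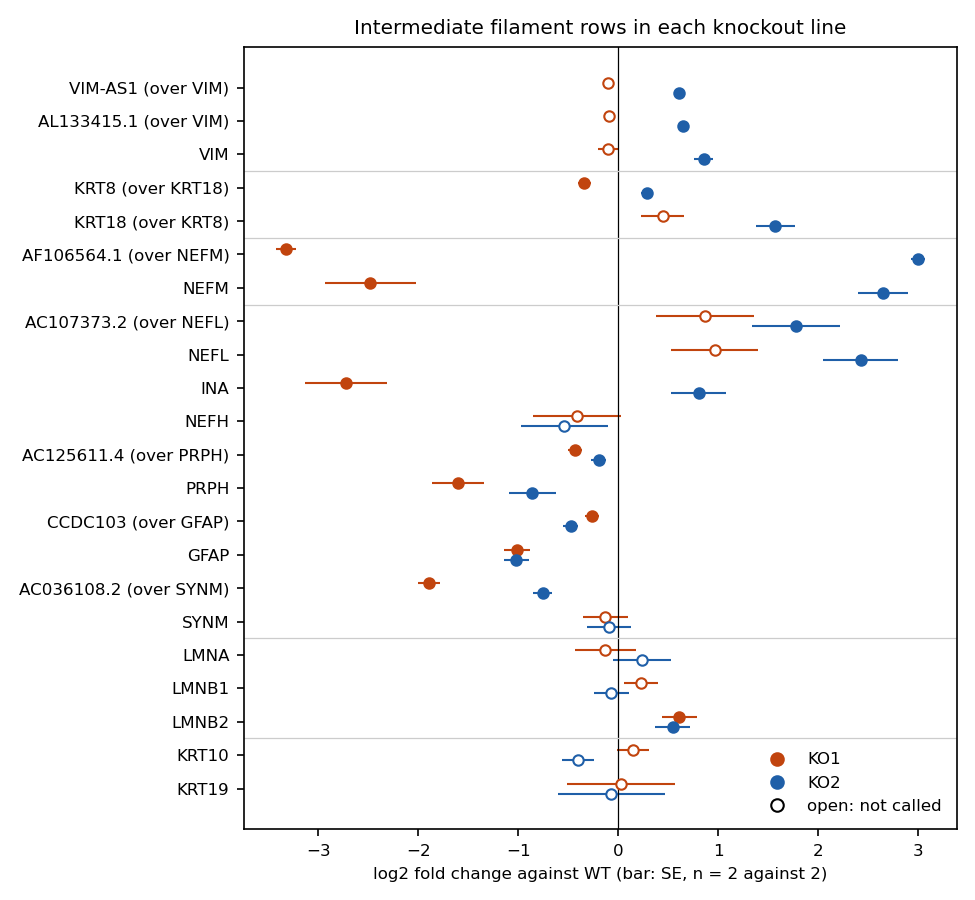
Log2 fold change against WT of filament rows in KO1 and KO2 (points, bars SE, n = 2 against 2, open points not called). AF106564.1 and NEFM lie on opposite sides of 0 in the lines, as does INA, while GFAP, PRPH and AC036108.2, a row over SYNM, are lower in both.

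VIM-AS1 carried the larger share of the counts over VIM. It had 26970 and 28026 reads in the WT libraries, 23367 and 25010 in those of KO1, and 44695 and 47482 in those of KO2. The KO2 libraries stood above all the others, and after scaling the WT and KO1 libraries overlapped, at 3638 and 3514 CPM in WT and 3118 and 3540 CPM in KO1. VIM-AS1 rose by 0.61 ± 0.05 in KO2 (log2, n = 2 against 2, edgeR adjusted p = 1.84e-12), a fold of 1.53 with a 95% interval of 1.42 to 1.63. In KO1 it was at -0.10 ± 0.05, not called (edgeR adjusted p = 0.130), with an interval of -0.20 to -0.0041 on the log2 scale. Without KO1 library 2 the KO1 value was -0.20 and was called (adjusted p = 4.18e-07).

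The VIM row was also higher in KO2, at lower counts. It had 339 and 352 reads in the WT libraries, 296 and 313 in those of KO1, and 678 and 692 in those of KO2, and rose 1.81-fold in KO2 (log2 0.85 ± 0.10, n = 2 against 2, edgeR adjusted p = 6.39e-09). In KO1 VIM was at -0.10 ± 0.10, not called. After scaling, the WT and KO1 libraries overlapped for VIM, at 45.7 and 44.1 CPM in WT and 39.5 and 44.3 CPM in KO1. Its share of the reads of the pair was 1.24% in both WT libraries, 1.25% and 1.24% in those of KO1, and 1.49% and 1.44% in KO2. The KO2 shares lay above the rest, and the interval of the second, 1.33% to 1.55%, overlapped those of WT, whose upper bounds were 1.38%.

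A second antisense row lies over VIM and was the row nearest to VIM-AS1 in profile among 5246 rows of at least 10 CPM. AL133415.1 covers 619 other exonic bases of VIM, downstream of the stretch that VIM-AS1 covers, on the minus strand from 17233325 to 17234833. It had 25115 and 27017 reads in the WT libraries, 22547 and 23532 in those of KO1, and 44299 and 45487 in those of KO2. AL133415.1 rose by 0.65 ± 0.05 in KO2 (log2, edgeR adjusted p = 1.38e-13) and was at -0.10 ± 0.05 in KO1, not called (edgeR adjusted p = 0.147). Without KO1 library 2 it stood at -0.17 in KO1 and was called. Rows over 2 separate stretches of the same gene, VIM, were thus both called higher in KO2 and not called in KO1. The Euclidean distance between the profiles of VIM-AS1 and AL133415.1, in log2 CPM centred on WT over the 6 libraries, was 0.081. The next rows were YIPF7, over GUF1, at 0.129 and GNPDA2, over AC096586.1, at 0.151.

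**Figure D4:**
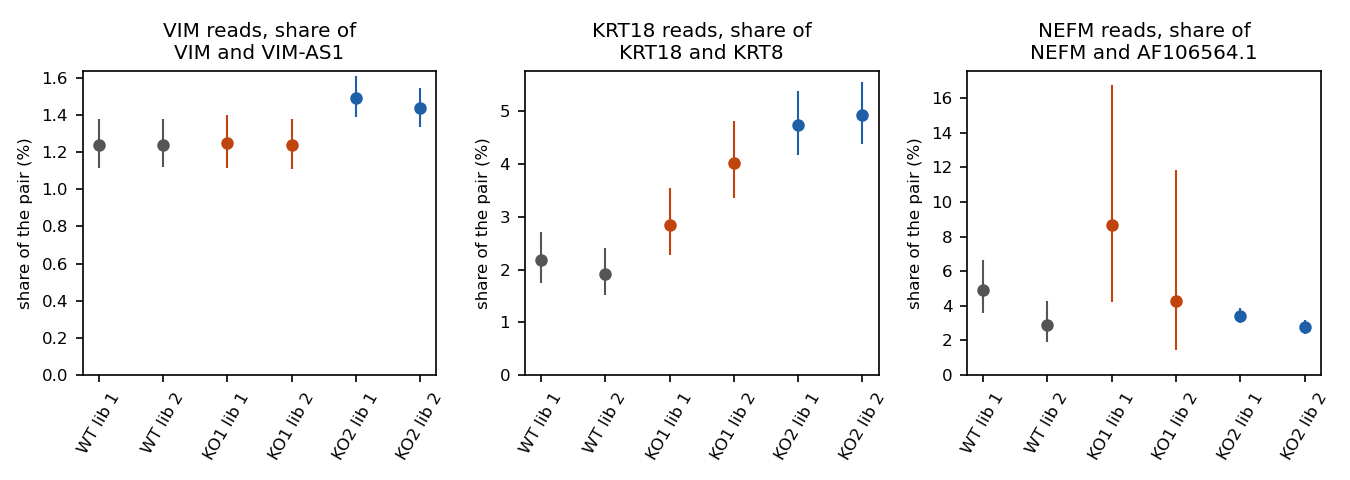
Share of each pair's reads (%) that fell in the VIM, KRT18 and NEFM rows in each library, with Wilson 95% intervals that cover counting error only. VIM stays between 1.24% and 1.49%, KRT18 goes from about 2% in WT, at 1.92% and 2.18%, to 4.74% and 4.93% in KO2, and the NEFM intervals are wide in KO1.

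The region around VIM was lower in both lines, and VIM stood above it. Among 31 other rows tested within 5 Mb, AL133415.1 included, the median log2 fold change was -0.91 in KO1 and -0.41 in KO2. In KO1 18 were called lower and 1 higher, and in KO2 12 lower and 3 higher. Over all rows, 13.3% were called lower and 10.4% higher in KO1, and 15.4% lower and 13.6% higher in KO2. The 10 Mb bin that holds VIM had medians of -1.02 in KO1 and -0.41 in KO2 over 21 rows. Those rows include VIM, VIM-AS1 and AL133415.1 themselves. Relative to that bin, VIM-AS1 was at 0.93 in KO1 and 1.03 in KO2 and VIM at 0.93 and 1.27, each called. The difference between the lines then ended for VIM-AS1, at -0.10 (adjusted p = 0.206), and remained called for VIM, at -0.34 (adjusted p = 0.0145). Whether the comparison was with all rows or with the region therefore set the KO1 result of both rows and, for VIM-AS1, the contrast between the lines.

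**Figure D5:**
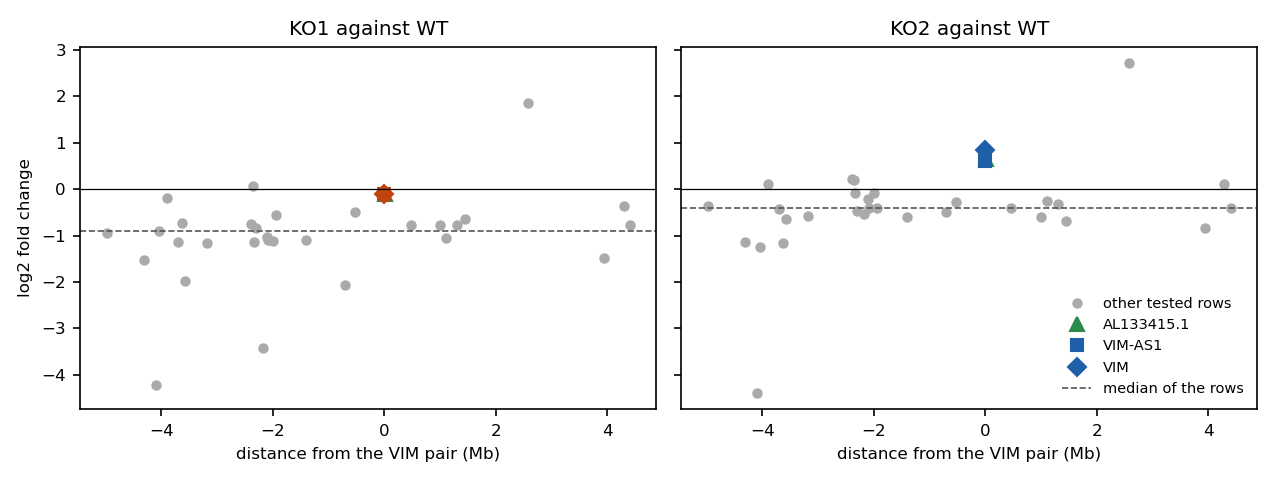
Log2 fold change against WT of tested rows within 5 Mb of the VIM pair, by distance in Mb, in KO1 and KO2, with the median of those rows as a dashed line. The symbols of VIM, VIM-AS1 and AL133415.1 lie on each other at about 0 distance, near -0.10 in KO1 and between 0.61 and 0.85 in KO2, above medians of -0.91 and -0.41.

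Mesenchymal markers were read beside VIM. The summed level of the 15 marker rows, none of them at 0 in all libraries, was 73.5 and 76.2 CPM in the WT libraries, 74.1 and 79.2 in those of KO1, and 140.4 and 128.1 in those of KO2. FN1, fibronectin, named after its values were seen, rose by 1.05 ± 0.09 in KO2 (log2, edgeR adjusted p = 9.69e-12) and was at 0.19 ± 0.10 in KO1, not called, although it was called there with upper-quartile scaling (0.27), with a minimum mean count of 50 (0.23) and with the bin offset (0.30). For KO1 minus KO2, FN1 was at -0.86 ± 0.09 (edgeR adjusted p = 1.78e-09). FN1 made up most of the sum, with 45.5 and 47.2 CPM in the WT libraries and 105.3 and 98.0 in those of KO2. The other 14 rows summed to 27.96 and 28.94 CPM in WT, 20.8 and 27.1 CPM in the KO1 libraries, and 35.1 and 30.2 CPM in the KO2 libraries. Of the 10 marker rows tested by name, 1 was called, FN1 in KO2. The rows over these markers on the other strand were also read. In KO2 all 4 tested were called higher, with a median log2 fold change of 1.28, beside 13.6% of all rows called higher. Named after their values were seen, these were AC110015.1 over CDH2, CLMAT3 over SPARC, and ACTA2-AS1 and FAS over ACTA2. ACTA2 thus entered that count through more than 1 row. In KO1, AC110015.1 was called higher and CLMAT3 lower, beside 10.4% and 13.3% of all rows. Any link between these marker rows and the VIM values was not tested.

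The KRT8 row, over the first coding exon of KRT18, had 3416 and 3680 reads in the WT libraries, 2560 and 2740 in those of KO1, and 4600 and 4914 in those of KO2. By mean CPM the order of the groups was KO1, WT, KO2. KRT8 fell by 0.34 ± 0.06 in KO1 (log2, n = 2 against 2, edgeR adjusted p = 9.70e-05) and rose by 0.29 ± 0.06 in KO2 (edgeR adjusted p = 4.99e-04). These changes are small beside those of other rows: 53.9% of tested rows differed more from WT in KO1 and 62.5% in KO2. For KO1 minus KO2, KRT8 was at -0.63 ± 0.06 (edgeR adjusted p = 1.20e-09).

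KRT18 had 76 and 72 reads in the WT libraries, 75 and 115 in those of KO1, and 229 and 255 in those of KO2. The KO2 libraries were well above the others, and the KO1 libraries differed from each other, 1 at the WT level and 1 above it. KRT18 rose by 1.57 ± 0.19 in KO2 (log2, n = 2 against 2, edgeR adjusted p = 3.47e-08), a fold of 2.97 with a 95% interval of 2.27 to 3.90. In KO1 it was at 0.44 ± 0.21, not called (edgeR adjusted p = 0.136), and without KO1 library 1 it was at 0.76 and called (adjusted p = 0.00990), while without KO1 library 2 it was at 0.054. The share of KRT18 in the reads of the pair was 2.18% and 1.92% in the WT libraries, 2.85% and 4.03% in those of KO1, and 4.74% and 4.93% in those of KO2. Unlike the VIM and NEFM pairs, in KO1 the rows of this pair stood on opposite sides of 0, with KRT8 called lower and KRT18 not called. The nearest profiles to KRT18 were AC092881.2, NUDT19 and XYLT2, at distances of 0.515, 0.517 and 0.536.

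Processed copies of the keratin genes held few reads. Of 50 KRT8 pseudogene rows 32 had none in any library, and the family summed to 51 to 103 reads a library. Of 67 KRT18 pseudogene rows 49 had none, and the sums were 94 to 160. KRT8P12, the most abundant, fell by 0.76 in KO1 (log2, edgeR adjusted p = 0.0402) and was at -0.65 in KO2, not called (edgeR adjusted p = 0.0633). The KRT18P12, KRT18P63 and KRT18P34 rows were called in neither line, and KRT18P7, named after its values were seen, fell by 1.32 in KO2 (edgeR adjusted p = 0.0302). Epithelial markers beside the keratins summed to 18.9 and 15.1 CPM in the WT libraries, 21.2 and 17.3 in those of KO1, and 17.4 and 16.9 in those of KO2, over 15 rows, each with reads in some library. Of 3 tested rows over these markers on the other strand, 1 was called higher and 1 lower in each line. Over all rows, 10.4% were called higher and 13.3% lower in KO1, and 13.6% higher and 15.4% lower in KO2. Named after their values were seen, MAL2-AS1, over MAL2, was higher in both lines and AC099314.1, over CDH1, lower in both. Any link between the epithelial marker rows and the keratin values was not tested.

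For the neurofilament rows, the nearest profile to NEFM was AF106564.1, at a distance of 1.84, followed by AL354953.1 at 1.95 and RPL12P14, a pseudogene row, at 2.46. Among the rows searched for AF106564.1, of at least 10 CPM on average, which leaves out NEFM, AL354953.1 was nearest, at 2.83, with 62 and 62 reads in the WT libraries, 10 and 20 in those of KO1, and 226 and 207 in those of KO2. OXCT1-AS1, over OXCT1, was at 3.36.

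Other filament genes were counted from lists. Of 8 further type III and type IV genes, 6 had a tested row, and 3 of these fell in KO1 (GFAP, PRPH and INA) while in KO2 2 fell and 2 rose. Over all rows, 13.3% were called lower in KO1, and 15.4% lower and 13.6% higher in KO2. The median log2 fold change of these 6 rows was -0.71 in KO1 and -0.32 in KO2, against 0.01 and 0.02 over all rows tested. Rows over type III and type IV genes on the other strand, outside the set described here, were also counted. Of 7 tested, 4 were called lower in KO1, and in KO2 3 were called lower and 2 higher. GFAP, the filament of astrocytes, fell by 1.01 ± 0.13 and 1.02 ± 0.13 (log2, KO1 and KO2, adjusted p = 8.51e-08 and 3.61e-08 by edgeR). Its row shares 2230 exonic bases with CCDC103 and 2230 with FAM187A, both on the other strand. CCDC103 fell by 0.26 in KO1 and 0.48 in KO2, and that call ended with the bin offset in both lines (-0.03 and -0.10) and in KO1 with upper-quartile scaling (-0.19), without WT library 2 (-0.24) and without KO1 library 1 (-0.17). PRPH, peripherin of peripheral neurons, fell by 1.60 ± 0.26 in KO1 and 0.86 ± 0.23 in KO2 (log2, adjusted p = 6.76e-06 and 0.00415 by edgeR), and its KO2 call ended without WT library 1 (-0.76) or KO2 library 1 (-0.69). AC125611.4, over 2445 exonic bases of PRPH and named after its values were seen, fell by 0.43 in KO1, and in KO2 was called at -0.20 but in no fit without 1 of the WT or KO2 libraries (-0.15 to -0.24). The KO2 call of AC125611.4 also ended with upper-quartile scaling (-0.17), no filter (-0.21), a minimum mean count of 50 (-0.14), DESeq2 (-0.21) and the bin offset (-0.19). AC036108.2, over 2027 exonic bases of SYNM (synemin), fell by 1.90 in KO1 and 0.76 in KO2 (log2), while SYNM itself was at -0.13 and -0.09, called in neither.

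Of the lamins and lens filament genes, 4 of 5 had a tested row. In KO1 1 rose and in KO2 2, LMNB2 in both lines and BFSP1, a lens filament gene named after its values were seen, in KO2. Over all rows, 10.4% were called higher in KO1 and 13.6% in KO2. LMNB2, lamin B2, rose by 0.61 ± 0.18 on the log2 scale in KO1 and 0.54 ± 0.18 in KO2 (edgeR adjusted p = 0.00915 and 0.0165). The KO1 call of LMNB2 ended without WT library 1 (0.60) or KO1 library 2 (0.54), and the KO2 call without WT library 1 (0.54), WT library 2 (0.55) or KO2 library 1 (0.52), and with DESeq2 (0.53). Of 6 further simple epithelial keratins, KRT19 alone was tested, at 0.03 in KO1 and -0.07 in KO2, called in neither. Of 47 other keratins 5 were tested. KRT32, KRT35, KRT36 and KRT38 had 10 to 236 reads in the WT libraries and none in any knockout library, so they passed the low-count filter through WT alone and could only be lower. The fifth, KRT10, was at 0.15 and -0.40, called in neither.

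Genes that anchor, fold, modify or transcribe filaments were counted in the same way, beside 23.6% of all rows called in KO1 and 29.0% in KO2. By direction, these were 10.4% higher and 13.3% lower in KO1, and 13.6% higher and 15.4% lower in KO2. Of 22 linker and junction genes 13 had a tested row, of which 1 rose and 3 fell in KO1 and 1 fell in KO2. Named after their values were seen, DSP (desmoplakin) was the row that rose in KO1, and DST and SUN2 fell there with SYNE2. SYNE2, a nesprin that ties the nucleus to the cytoskeleton, fell by 1.07 and 1.63 (log2, edgeR adjusted p = 1.76e-05 and 7.97e-09). DSG2-AS1, over 171 exonic bases of the desmosomal cadherin gene DSG2, fell by 1.19 in KO1 and 1.11 in KO2, and by 0.32 and 0.34 with the bin offset, still called. Of 11 tested rows among 17 chaperone and turnover genes, 1 rose and 1 fell in KO1, and 1 rose and 2 fell in KO2. CASP6, a caspase that cleaves filament proteins, was lower in both. The others, named after their values were seen, were CAPN2, higher in KO1, STUB1, higher in KO2, and SQSTM1, lower in KO2. Of 16 tested rows among 20 kinase and phosphatase genes, 1 fell in KO1, PPP1CA, again named after its values were seen, and 2 rose in KO2. Tested rows over the genes of these lists on the other strand were also counted. Of 7 over linker and junction genes, some over the same gene, 1 was called lower in KO1 and 4 in KO2. Of 6 over chaperone and turnover genes, 1 was called lower in KO1 and 4 in KO2. Of 8 over kinase and phosphatase genes, 3 were called higher and 1 lower in KO1, and 0 in KO2.

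Over all rows, 10.4% were called higher and 13.3% lower in KO1, and 13.6% higher and 15.4% lower in KO2. Among 18 tested rows of 26 transcription factors of filament genes, 4 rose and 1 fell in KO1, and 4 rose and 2 fell in KO2. REST is in these counts in both lines, and its calls ended in some fits without 1 library. Besides those given by value, POU3F2 rose in both lines and TWIST2 in KO2, named after their values were seen. JUN, a component of AP-1, rose by 0.83 ± 0.15 on the log2 scale in KO1 and 1.07 ± 0.14 in KO2 (adjusted p = 3.48e-05 and 1.90e-07 by edgeR). TWIST1, a regulator of mesenchymal genes, rose by 1.49 and 1.33, and its row shares 141 exonic bases with AC003986.2. ZEB1, another such regulator, fell by 0.54 in KO1 and 0.83 in KO2, and its row shares 366 exonic bases with ZEB1-AS1. The ZEB1 call in KO1 ended without WT library 1 (-0.46). Of 4 tested rows over these factors on the other strand, 1 was called, lower in both lines. This row, AL445209.1, over 1258 exonic bases of POU4F1, a factor of sensory neurons, fell by 1.42 in KO1 and 0.94 in KO2.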

How the data were processed

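Total RNA was extracted with TRNzol and made into strand-keeping NEBNext Ultra II Directional libraries, per the labels' protocols, with the library type given as first-strand. The submitters' processing notes name Trim Galore, STAR (version 2.7.1a), limma and HTSeq (version 0.6.1p1), and the builds hg38 and GRCh38.p6. For the counting, annotation and strand setting were not given in the sources used here. Every test used the raw read counts that the authors deposited per symbol. The deposited FPKM, log2 fold changes, p-values and q-values of the authors, and their gene size (other), are per the file headers, and were read only where named. The authors' moderated statistic, a score, was not used.

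Counts were tested with edgeR 4.0.16 in R 4.3.3 (TMM, filterByExpr, quasi-likelihood F test) in 1 fit of 6 libraries in 3 groups without covariates, with adjustment over 14184 rows. That fit was tested on simulated data. It had 3 residual degrees of freedom a row, against a median of 31.9 prior ones borrowed from other rows. Each SE was the size of the log2 fold change over the square root of F. SEs differed between methods. By edgeR, DESeq2 and limma-voom, that of AF106564.1 in KO1 was 0.10, 0.14 and 0.17, and that of VIM-AS1 0.049, 0.059 and 0.035. Rows were placed by symbol on GENCODE v29 (56195 of 59087). A row stood for an opposite-strand gene when it shared at least 100 exonic bases with it and these were at least 80% of its opposite-strand overlap. CPM used TMM sizes for single rows and library totals for marker sums. For likeness, log2 CPM had a prior count of 2.

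Members and lists were chosen with earlier results of these data known. Named were the 6 rows, up to 4 rows per list called in both lines, up to 4 keratin pseudogenes and the 3 nearest profiles; some of these, among them marker rows, are not reported here. Tried as alternatives were DESeq2 1.42.0, limma-voom (limma 3.58.1), upper-quartile and RLE factors, other filters, the replicate block, fits of 2 groups, the 10 Mb bin offset and leaving out each library.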

Additional observations from a re-analysis of the deposited data

Results flagged for a closer look

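The lines differed from each other in every filament row of the set, by the direct edgeR contrast of KO1 with KO2, with log2 differences (KO1 minus KO2 ± SE, n = 2 against 2) of -6.32 ± 0.09 for AF106564.1, -5.13 ± 0.34 for NEFM, -1.13 ± 0.19 for KRT18, -0.95 ± 0.10 for VIM, -0.71 ± 0.05 for VIM-AS1 and -0.63 ± 0.06 for KRT8. Rows beside them that differed in the same contrast were INA at -3.53, NEFL at -1.46, FN1 at -0.86 and AL133415.1 at -0.75, all lower in KO1, and REST at 0.56, higher in KO1.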

How the results depend on the processing

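Each of the 6 rows kept its direction and its call in KO2 under every alternative tried, and so did KRT8, NEFM and AF106564.1 in KO1. With the 10 Mb bin offset, which tests 10454 rows and takes out each bin's median, the counts of called rows were 2101 in KO1, 2368 in KO2 and 1717 between the lines. Under it the KO1 values of VIM, VIM-AS1 and AL133415.1 turned to 0.93, 0.93 and 0.93, and VIM-AS1 between the lines was at -0.10, not called, as was AL133415.1 at -0.13. In KO1 limma-voom called VIM-AS1 at -0.11 and AL133415.1 at -0.10. Leaving out 1 library at a time gave these lowest and highest log2 values: in KO1, VIM -0.19 and -0.02, VIM-AS1 -0.20 and -0.016, KRT8 -0.44 and -0.25, KRT18 0.054 and 0.76, NEFM -3.16 and -2.05, AF106564.1 -3.35 and -3.30. In KO2 they were VIM 0.83 and 0.88, VIM-AS1 0.59 and 0.63, KRT8 0.28 and 0.31, KRT18 1.48 and 1.66, NEFM 2.30 and 3.08, AF106564.1 2.98 and 3.03. Rows called then numbered 2575 to 3411 in KO1, 3228 to 4541 in KO2 and 2118 to 3007 between the lines. Same-numbered libraries had deviations correlated at -0.03, -0.02 and -0.10, so the numbers did not pair them; with the replicate block 3147, 3944 and 2729 rows were called. Low counts of NEFM in KO1 limit its share of the pair.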
